A study of Homo sapiens with 10 samples.

Results

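Replication licensing loads the inactive MCM2-7 helicase onto DNA before S phase, and the transcripts followed here are those of 10 factors of that step. They are the helicase subunits MCM2, MCM3, MCM4, MCM5, MCM6 and MCM7, the loaders CDC6 and CDT1, the CDT1 inhibitor GMNN (geminin), and MCM10, which acts when loaded helicases are activated. They were taken by gene symbol, and all 10 were found, with a value in every library, among the 11258 transcripts listed for both assays. The cells were BJ fibroblasts, a human line immortalised with telomerase (hTERT), untreated or kept on nutlin-3a for 2, 4, 6 or 19 h. Nutlin-3a is a small molecule that keeps MDM2 from holding p53 down, and the comparison asks what active p53 does to messages and to how much they are translated. Poly(A) RNA of each of the 5 groups was measured by RNA-Seq, and the mRNA fragments protected by ribosomes were measured by Ribo-Seq, with 1 library per group and assay. Controls and treated cells share the hTERT transgene, and no other line was examined here.

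Licensing is restricted to late mitosis and G1. The origin recognition complex marks the origin, CDC6 joins it, and CDT1 brings the MCM ring, whereas geminin, made from S phase to mitosis, blocks CDT1 so that no origin is licensed again in the same cycle. The genes of these factors are known to be transcribed in proliferating cells under E2F transcription factors, and quiescent cells hold little of their mRNA. Active p53 induces CDKN1A, whose product p21 inhibits the cyclin-dependent kinases that keep E2F active.

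The promoters of the licensing genes are shown because the transcripts moved together, as described further on. RefSeq (GRCh38.p14) gave promoter windows, from 250 bases before to 50 after a start site, for 8 of the 10 genes, with 11 windows in all, and none for MCM4 or MCM5. The windows were searched on both strands for the words TTTCCCGC, TTTGGCGC, TTTCGCGC and TTTGCCGC, letters that E2F factors are known to bind. At least 1 of these words was in 7 of the 11 windows, those of CDC6, CDT1, GMNN, MCM2, MCM3, MCM6 and MCM7, against 3.31% of all 35116 RefSeq windows. The MCM10 window held none of the 4 words but held the shorter TTTGGCG, which overlaps TTTGGCGC and was in 1.92% of all windows. The stretches of 100 bases below are written in the direction of transcription, with matches to the 4 words in capitals, or in MCM10 the match to the shorter word. Where words overlap on opposite strands, as in MCM2 and MCM6, the capitals form a single longer run.
MCM2: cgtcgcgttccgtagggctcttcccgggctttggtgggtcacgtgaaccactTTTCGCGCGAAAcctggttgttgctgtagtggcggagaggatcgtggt
MCM3: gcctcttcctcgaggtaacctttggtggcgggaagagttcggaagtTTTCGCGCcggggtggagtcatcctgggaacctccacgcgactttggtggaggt
MCM6: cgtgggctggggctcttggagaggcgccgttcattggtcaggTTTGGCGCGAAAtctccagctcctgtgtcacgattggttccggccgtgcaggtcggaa
MCM7: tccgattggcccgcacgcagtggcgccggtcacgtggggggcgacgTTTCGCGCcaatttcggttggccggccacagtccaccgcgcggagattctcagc
MCM10: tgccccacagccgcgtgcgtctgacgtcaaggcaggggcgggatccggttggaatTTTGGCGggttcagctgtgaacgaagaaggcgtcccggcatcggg
CDC6: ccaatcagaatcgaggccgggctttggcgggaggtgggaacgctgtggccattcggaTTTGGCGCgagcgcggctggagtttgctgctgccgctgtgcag
CDT1: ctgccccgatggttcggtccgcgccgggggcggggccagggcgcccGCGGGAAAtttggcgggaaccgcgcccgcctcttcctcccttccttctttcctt
GMNN: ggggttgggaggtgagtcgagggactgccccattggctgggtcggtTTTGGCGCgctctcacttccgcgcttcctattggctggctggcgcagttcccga
The MCM2 stretch is at chr3:127598361-127598460 on the plus strand. That of MCM3 is at chr6:52284693-52284792 on the minus strand, that of MCM6 at chr2:135876476-135876575 on the minus strand and that of MCM7 at chr7:100101353-100101452 on the minus strand. That of MCM10 is at chr10:13161508-13161607 on the plus strand, that of CDC6 at chr17:40287829-40287928 on the plus strand, that of CDT1 at chr16:88803708-88803807 on the plus strand and that of GMNN at chr6:24775287-24775386 on the plus strand. The capitals lie close to the annotated start in MCM2, MCM3, MCM7, MCM10 and CDC6, within 9 bases of it, whereas the nearest match began 35 bases before the start in CDT1, 80 in GMNN and 86 in MCM6. MCM3 and MCM7 each held a further match outside the stretch, 174 and 187 bases before the start, and MCM6 held a second overlapping pair, of which the outer word began 152 bases before it. A CCAAT box, CCAAT on either strand, was in 8 of the 11 windows, against 34.6% of all windows. The word TTTGAA, the CHR element known from promoters of mitotic genes, was in none of the 11, against 15.2% of all. A match describes letters only, and binding was not measured.

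Every group was 1 library, so no difference has a replicate check and no p-value was computed. The intervals given are 95% counting intervals, from whole reads worked back from the steps between FPKM values (fragments per kilobase of transcript, scaled to library size), and they cover counting error only. The RNA-Seq libraries were scaled to totals of 23845558 to 27554282 reads and the Ribo-Seq libraries to 7744899 (19 h) to 14460722 (4 h). All 10 fibroblast markers examined, from PDGFRB to VIM, were at 5 FPKM or more in both control libraries, and no blood or endothelial marker reached 1 FPKM there. Of the 6 epithelial markers, KRT8 and KRT18 alone reached 5 FPKM there, KRT18 with 293 FPKM in RNA and 575 in density. CDH1, the epithelial cadherin, was at 0.0170 FPKM in RNA. The treatment was seen in CDKN1A, with 68.6 FPKM of RNA in the control and 1316 at 19 h, and in MDM2, with 14.9 and 259. The study describes differences between sequencing runs, and the labels do not give the run, so its part in any value was not tested.

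The 6 subunits of the MCM ring were the most abundant licensing transcripts in the RNA-Seq control, ordered MCM7, MCM5, MCM4, MCM3, MCM6 and MCM2, from 98.8 to 42.6 FPKM. CDC6 followed with 26.7 FPKM, GMNN with 25.5, CDT1 with 16.3 and MCM10 with 9.50. Of these neighbours, CDC6 and GMNN alone did not differ beyond counting error, at a ratio of 1.05 (interval 0.966 to 1.14). In the Ribo-Seq control, the ribosome density of MCM7 (111 FPKM) and MCM5 (109) was highest and that of MCM10 (7.57) lowest. Neither MCM7 and MCM5, nor MCM2 and MCM4, nor GMNN and MCM6 differed there beyond counting error. Ribosome density over RNA, the translational efficiency (TE), was highest in GMNN in the control, at a ratio of 1.64, and lowest in CDC6, at 0.66. The recovered transcript length of each licensing factor was the same in both tables, so the Ribo-Seq values were per length of the whole transcript, and ratios between genes carry their different coding shares.

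**Figure D1:**
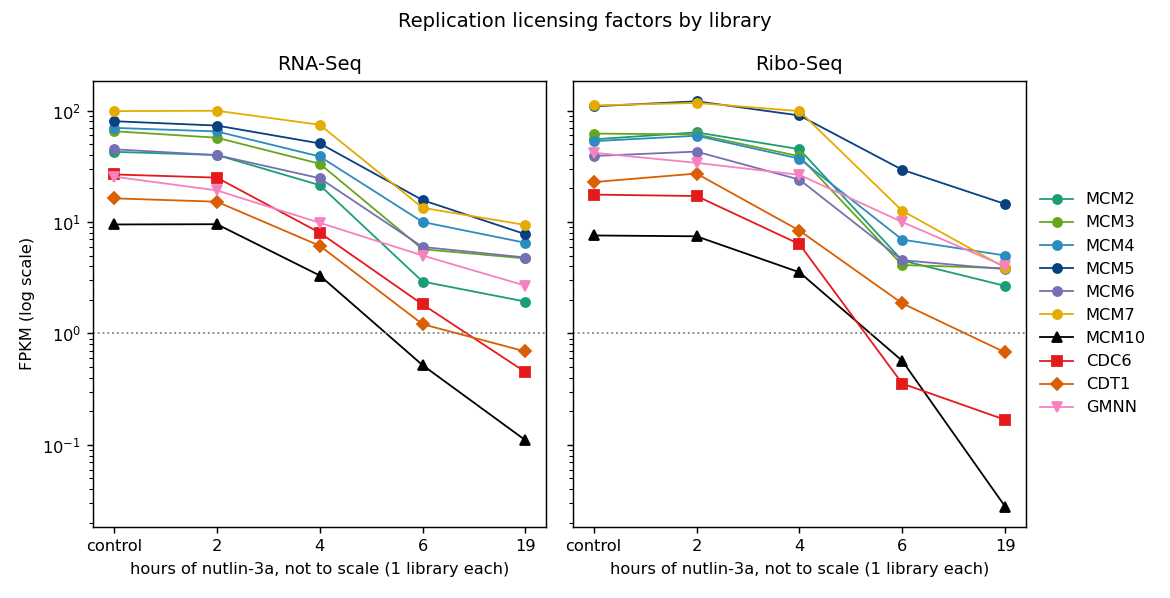
FPKM of each licensing factor (vertical axis, log scale) in the RNA-Seq libraries (left) and Ribo-Seq libraries (right) of the control and of 2, 4, 6 and 19 h of nutlin-3a (horizontal axis, not to scale), with 1 point per library and a dotted line at 1 FPKM. The lines stay nearly level to 2 h, part at 4 h and drop steeply to 6 h. CDC6, CDT1 and MCM10 are lowest at 4 h, as they already are in the Ribo-Seq control. In the RNA-Seq control MCM10 and CDT1 are lowest.

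RNA of the licensing factors was slightly below its control level at 2 h in 8 of the 10, as in 64.5% of tested genes. It dropped further by 4 h, with the loaders, geminin and MCM10 ahead of the ring, and had fallen in all 10 by 6 h. At 2 h none was at least 2-fold lower (0.0143% of the 7015 tested genes were), but 7 intervals lay below the control, those of MCM2, MCM3, MCM4, MCM5, MCM6, CDC6 and GMNN, with ratios from 0.75 in GMNN to 0.94 in MCM2. At 4 h 4 of 10 were, CDC6, CDT1, GMNN and MCM10, against 0.684% of tested genes. Against the 2 h library 3 were (0.969% of tested genes), since GMNN was then at 0.51. At 6 h and at 19 h all 10 were, against 5.39% and 7.1%. The median log2 change of the 10 was -0.10, -0.98, -3.08 and -3.41 at 2, 4, 6 and 19 h, where that of all tested genes was -0.045, -0.074, -0.0024 and -0.067. Values below 1 FPKM were set to 1 for these counts and medians. In a bulk culture, fewer cells in the phases that express a gene and less RNA per cell cannot be told apart, so these are changes of the culture's mean.

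Ribosome density was above the control at 2 h in 6 of the 10 and in 51.9% of tested genes. At 4 h CDC6, CDT1 and MCM10, but not GMNN, were ahead of the ring. None of the 10 was at least 2-fold lower at 2 h (0.128% of tested genes), and 3 were at 4 h, CDC6, CDT1 and MCM10 (0.527%). With 1 FPKM added in place of the floor 2 were at 4 h (0.285%), which left out MCM10. All 10 were at 6 h (8.04%) and at 19 h (14.9%). Their median log2 change was 0.10, -0.67, -3.13 and -3.71, against 0.016, 0.10, -0.020 and -0.19 for all tested genes.

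CDC6 is the ATPase that joins the origin recognition complex and recruits the ring. Its RNA was 26.7 FPKM in the control, and 25.0, 8.01, 1.82 and 0.450 FPKM after 2, 4, 6 and 19 h. Its density was 17.6, 17.1, 6.33, 0.355 and 0.168 FPKM in the same libraries. RNA was at 29.9% of the control at 4 h, the lowest of the 10, with a ratio of 0.30 (0.27 to 0.33), and at 1.68% at 19 h (ratio 0.017, interval 0.012 to 0.023). The density at 6 h rested on 11 reads, a ratio to control of 0.020 (0.010 to 0.036), and that at 19 h on 4 reads.

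CDT1 is the loader that escorts the MCM ring to the origin. Its RNA was 16.3, 15.2, 6.12, 1.21 and 0.689 FPKM in the control and at 2, 4, 6 and 19 h. Its density was 22.8, 27.2, 8.38, 1.86 and 0.676 FPKM. Density at 2 h was therefore above the control, at a ratio of 1.20 (1.08 to 1.32), while RNA was at 0.93 (0.86 to 1.02). At 4 h both were at a similar fraction of the control, 37.6% in RNA and 36.8% in density, and at 19 h RNA was at 4.24% and density at 2.97%.

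GMNN encodes geminin, the inhibitor of CDT1. Its RNA was 25.5, 19.2, 9.83, 5.00 and 2.68 FPKM, and its density 41.8, 33.9, 26.5, 9.99 and 3.99 FPKM. It was the lowest of the 10 relative to control at 2 h, with an RNA ratio of 0.75 (0.68 to 0.84), yet at 6 h it lay with MCM5 above the other members, both at a ratio of 0.20 (GMNN 0.17 to 0.23). Its RNA dropped by about the same factor in each interval, to 0.51 of the level before from 2 to 4 h, 0.51 from 4 to 6 h and 0.54 from 6 to 19 h. Density at 2 h was at 0.81 of the control (0.72 to 0.92), and GMNN was the sole member whose density interval at 2 h lay below the control.

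The balance of loader and inhibitor messages shifted towards geminin. CDT1 over GMNN was 0.64 in RNA in the control (0.58 to 0.70), 0.79 in the 2 h library, 0.62 in that of 4 h, 0.24 in that of 6 h (0.18 to 0.31) and 0.26 in that of 19 h (0.18 to 0.37). In density it was 0.55, 0.80, 0.32, 0.19 and 0.17 in the same order, with intervals of 0.49 to 0.61 in the control and 0.085 to 0.32 at 19 h. Both assays were thus above the control at 2 h and well below it from 6 h, and density was already below it at 4 h. CDC6 over GMNN in RNA was 1.05 in the control and 1.30, 0.81, 0.36 and 0.17 in the treated libraries in order of time.

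MCM10 helps to activate the loaded helicase and was the least abundant of the 10 in every library but that of Ribo-Seq at 6 h, where CDC6 was lower. In Ribo-Seq at 6 h and at 19 h, CDC6 and MCM10 did not differ beyond counting error. MCM10 RNA was 9.50, 9.55, 3.31, 0.519 and 0.110 FPKM, and its density 7.57, 7.44, 3.54, 0.568 and 0.0280 FPKM. RNA at 2 h did not differ from the control beyond counting error (ratio 1.01, interval 0.92 to 1.09). RNA at 4 h was at 34.9% of it, and at 19 h at 1.16% on 13 reads, a ratio of 0.012 (0.0061 to 0.020). The Ribo-Seq library of 19 h held 1 read of MCM10, a ratio of 0.0037 with an interval of 0.0001 to 0.021.

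MCM7 was the most abundant subunit of the ring in the RNA-Seq libraries other than that of 6 h, where MCM5 was higher by a ratio of 1.17 (1.08 to 1.28). Its RNA was 98.8, 99.5, 74.5, 13.4 and 9.40 FPKM. Its density was 111, 117, 98.8, 12.6 and 3.89 FPKM. It was the slowest of the 10 at 4 h in both assays, with 75.4% of the control in RNA and 89.0% in density. From 4 to 6 h RNA then dropped to 0.18 of its level (0.17 to 0.19) and density to 0.13 (0.11 to 0.14). From 6 to 19 h they separated further, with RNA at 0.70 (0.64 to 0.77) and density at 0.31 (0.24 to 0.39) of the 6 h level.

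MCM5 and MCM3 are ring subunits that differed in how far they fell. MCM5 RNA was 80.2, 73.3, 50.7, 15.7 and 7.76 FPKM, and its density 109, 121, 90.3, 29.4 and 14.5 FPKM. MCM3 RNA was 65.2, 57.0, 33.3, 5.70 and 4.71 FPKM, and its density 62.1, 61.1, 38.9, 4.11 and 3.85 FPKM. At 6 h MCM5 RNA was at 0.20 of the control (0.18 to 0.21) and MCM3 RNA at 0.087 (0.080 to 0.096), intervals that do not overlap. In density the gap was wider, 0.27 (0.25 to 0.29) against 0.066 (0.055 to 0.079). By 19 h their RNA ratios were nearer, 0.097 and 0.072, since MCM5 RNA dropped to 0.49 of its level from 6 to 19 h and MCM3 RNA to 0.83.

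MCM2 showed the deepest fall of the ring in RNA. Its RNA was 42.6, 39.9, 21.4, 2.92 and 1.93 FPKM, and its density 55.1, 63.7, 45.0, 4.51 and 2.67 FPKM. RNA at 19 h was at 4.53% of the control, a ratio of 0.045 (0.039 to 0.053). MCM4 and MCM6, which with MCM7 form the helicase core of the ring, stayed closer to one another. MCM4 RNA was 69.9, 64.9, 38.7, 10.0 and 6.50 FPKM, and its density 53.1, 59.4, 37.0, 6.95 and 5.00 FPKM. MCM6 RNA was 44.9, 39.8, 24.7, 5.97 and 4.80 FPKM, and its density 39.1, 42.8, 24.0, 4.54 and 3.77 FPKM. At 19 h the RNA ratio was 0.093 (0.086 to 0.10) for MCM4 and 0.11 (0.097 to 0.12) for MCM6, which overlap.

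The steepest step for the group lay between 4 and 6 h. On values without the floor, the median log2 step of RNA was -0.84 from 2 to 4 h, -2.24 from 4 to 6 h and -0.72 from 6 to 19 h, and in each step the intervals of all 10 lay below no change. For density the medians were -0.67, -2.53 and -1.05. With the floor the medians from 6 to 19 h were -0.55 in RNA and -0.62 in density, where MCM10 and CDC6 were below 1 FPKM at both times. In density all 10 intervals lay below no change in the first 2 of these steps, and 7 did from 6 to 19 h, where those of MCM3, MCM6 and CDC6 included no change. These steps share libraries with the comparisons against the control and are not further evidence. Among the members, MCM2 made the largest RNA step from 4 to 6 h, to 0.14 of its level, and GMNN the smallest, to 0.51.

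The MCM ring holds 1 copy of each of its 6 subunits, so their messages were compared within each library. Summed over the 6, RNA was 402, 375, 243, 53.7 and 35.1 FPKM in the control and at 2, 4, 6 and 19 h, and density 430, 465, 334, 62.0 and 33.7 FPKM. The highest over the lowest subunit was 2.32 in RNA in the control and 2.50, 3.48, 5.39 and 4.86 in the treated libraries in order of time. In density the ratio was 2.84, 2.82, 4.12, 7.15 and 5.43. The spread between subunits was thus wider at 6 and 19 h than in the control in both assays. MCM2 held 10.6% of the summed RNA in the control and 5.51% at 19 h. MCM5 held 25.5% of the summed density in the control, 47.3% at 6 h and 43.1% at 19 h, whereas MCM7 went from 25.8% to 20.2% and 11.5%. In the density order at 19 h, no neighbours differed beyond counting error in the run of MCM4, GMNN, MCM7, MCM3 and MCM6.

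**Figure D2:**
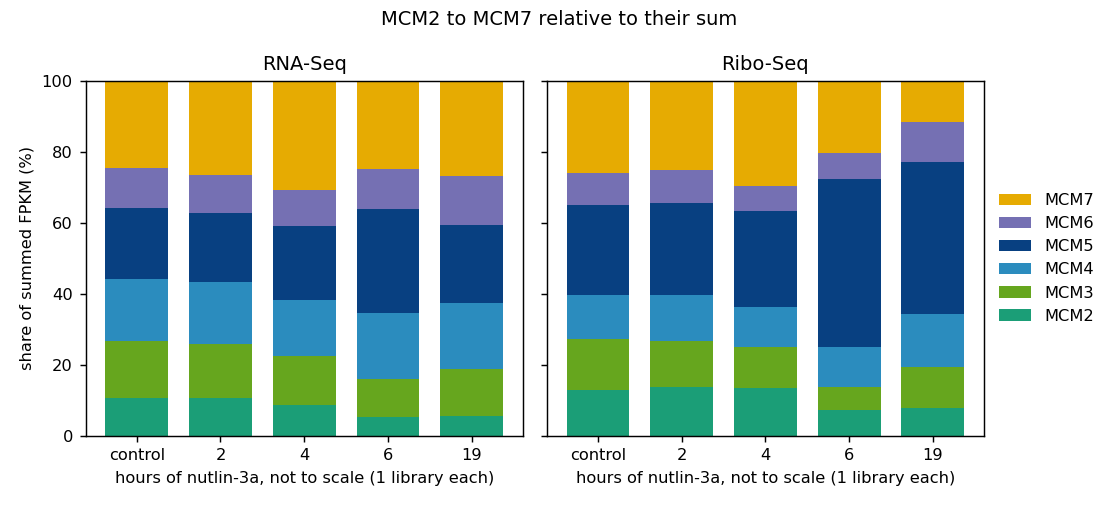
Share of each MCM2-7 subunit in their summed FPKM (vertical axis, percent) in RNA-Seq (left) and Ribo-Seq (right) of the control and of 2, 4, 6 and 19 h of nutlin-3a, with 1 bar per library. In the Ribo-Seq bars the share of MCM5 grows from 25.5% to 47.3% at 6 h and that of MCM7 shrinks to 11.5% at 19 h, while the RNA-Seq bars change less.

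Translational efficiency of the licensing factors moved less than 2-fold, with values floored, beside the fall of their RNA, with MCM7 at 19 h the exception. At 2 h none of the 10 was at least 2-fold lower in TE (0.057% of tested genes were) or higher (1.14%). The same held at 4 h (0.128% lower and 0.87% higher) and at 6 h (2.54% and 3.21%). At 19 h MCM7 alone was lower (4.21%) and none was higher (1.94%). MCM10 at 6 h and MCM10, CDC6 and CDT1 at 19 h were below 1 FPKM in both assays, so their TE with the floor is 0 on the log2 scale and gives no reading of these genes. The median log2 change of TE was 0.22, 0.31, 0.0022 and -0.060, against 0.045, 0.18, 0.0021 and -0.067 for all tested genes. Those at 6 and 19 h depended on the baseline, and against the 2 h library they were -0.27 and -0.25, with -0.052 and -0.13 for all tested genes. Without the floor the median at 19 h was -0.18.

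MCM7 at 19 h had 9.40 FPKM of RNA, on 724 reads, and 3.89 FPKM of density, on 89 reads. Its TE was at 0.37 of the control (0.29 to 0.46), a log2 change of -1.44. At 2, 4 and 6 h the log2 change of its TE was 0.063, 0.24 and -0.26. At 6 h its TE was already below the control, at a ratio of 0.84 (0.74 to 0.95), and the larger part of the drop came after 6 h. The other 5 ring subunits at 19 h had TE ratios from 0.86 in MCM3 to 1.37 in MCM5, each above the interval of MCM7 (MCM3 0.67 to 1.09). MCM5 was the sole member with TE above the control beyond counting error at all 4 times, with log2 changes of 0.27, 0.38, 0.45 and 0.45 (interval at 19 h 0.23 to 0.67).

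TE at 2 and 4 h was slightly above the control in most of the group, as in most tested genes. At 2 h it was above in 9 of 10 and in 56.5% of tested genes, with MCM10 the exception at -0.033, and 6 intervals excluded no change. At 4 h it was above in 9 of 10 and in 73.3% of tested genes, with CDT1 the exception at -0.032, and 9 intervals excluded no change. The largest were GMNN, with a TE ratio of 1.64 at 4 h (1.37 to 1.97), and MCM2, with 1.62 (1.49 to 1.77). Density itself was above the control at 2 h beyond counting error in MCM2, MCM4, MCM5, MCM6, MCM7 and CDT1, by ratios from 1.05 in MCM7 to 1.20 in CDT1, while RNA was below it in 7. Transcript length moved with density at 2 h across tested genes, with a slope of 0.14 in log2 change per doubling of length over the 5828 genes whose length could be recovered. The transcripts of 9 licensing factors were 2606 to 4546 nucleotides long, and the 2237 tested genes of that length range had a median log2 density change of 0.070 (quartiles -0.12 and 0.28) at 2 h. The median TE change of those genes was 0.069 at 2 h and 0.17 at 4 h. GMNN, whose density was below the control at 2 h, had the shortest transcript, of 1262 nucleotides, and was also the lowest in RNA. Other members did not follow the order of length. MCM10, with the longest transcript (4546 nucleotides), had a log2 density change of -0.026 at 2 h. CDT1, with 2674 nucleotides, had the highest, 0.26. The part of length in these changes was not tested.

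CDC6 at 6 h was 2-fold lower in TE without the floor alone. Its TE was at 0.30 of the control (0.14 to 0.55), from 154 RNA-Seq reads and 11 Ribo-Seq reads, and with density set to 1 FPKM its log2 change was -0.26 and not 2-fold. At 19 h its TE interval, 0.15 to 1.59, included no change. TE of MCM10 at 19 h rested on 1 Ribo-Seq read and could not be read at this depth (0.0076 to 2.18).

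**Figure D3:**
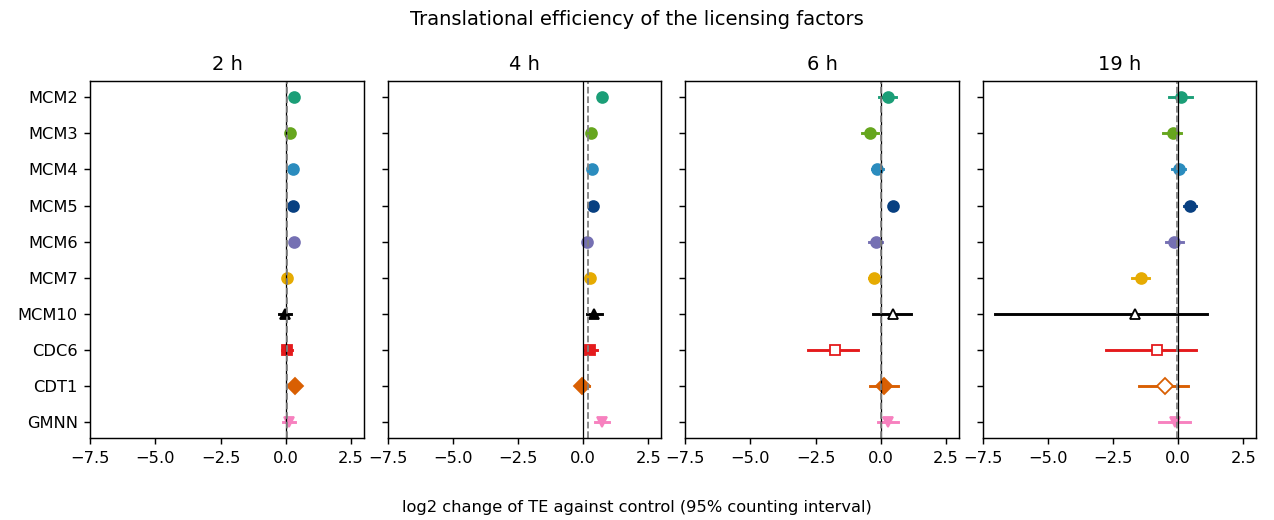
Log2 change of TE against the control (horizontal axis) for each licensing factor at 2, 4, 6 and 19 h, from values without the floor, with 95% counting intervals as lines, open symbols where a value was below 1 FPKM, and a dashed line at the median of all tested genes. Most points lie near 0 at every time, MCM7 lies at -1.44 at 19 h, and the intervals of MCM10 and CDC6 widen with their few reads.

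Other genes around the licensing step were set beside the 10, in lists chosen by function. Their log2 changes use values set to 1 where below 1 FPKM, while the levels printed are without this floor. Falls that end below 1 FPKM are thus understated on the log2 scale. The origin recognition complex, the platform on which CDC6 and CDT1 act, had more members past 2-fold in density than in RNA, as did the tested genes. Of its 6 tested members 2 were at least 2-fold lower in RNA at 19 h, ORC1 and ORC6 (7.1% of tested genes), and the median log2 change was -0.78. In density 3 were at 6 h (8.04%), with a median of -1.20. At 19 h 4 were (14.9%), ORC1, ORC3, ORC4 and ORC6, with a median of -1.41. Of these, ORC4 was barely past the threshold, at -1.02 on 62 reads, and ORC3 had 49 reads. The difference between the assays was not tested. ORC6 went from 16.7 to 0.755 FPKM (log2 change -4.06 with the floor), while ORC4, the highest, went from 6.72 to 5.79 (-0.21). ORC1, named after its values were seen, was at 8.85 FPKM in the control, 2.38 at 4 h and 0.182 at 19 h. Its log2 change at 4 h was -1.89 on 184 reads, near the -1.74 of CDC6, the lowest licensing factor. No counting interval was set on that difference. ORC2 did not pass the filter on low values and was at 8.31 and 7.02 FPKM.

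Genes that fire licensed origins fell with the licensing factors. All 7 tested ones were at least 2-fold lower in RNA at 6 and 19 h (5.39% and 7.1% of tested genes), with medians of -2.68 and -3.05. At 4 h 1 of 7 was (0.684%), GINS3 (-1.32, named after its values were seen). CDC45, which joins the MCM ring to form the active helicase, went from 20.6 to 0.574 FPKM at 19 h (-4.36 with the floor). TOPBP1, a scaffold of the firing step, went from 19.3 to 4.69 (-2.04). Of 3 tested MCM relatives and partners, MCM8 fell from 14.3 to 1.54 FPKM (-3.21) and MCMBP, a binding partner of the ring, from 29.4 to 9.01 (-1.71), while MCM3AP was at 22.9 and 22.1 (-0.053).

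Genes that turn over CDT1 and CDC6 proteins were mixed. Of 7 tested, 3 were at least 2-fold lower in RNA at 19 h (7.1% of tested genes), CCNF, DTL and SKP2, with a list median of -0.78. CCNF, the cyclin F that targets CDC6, went from 20.3 to 0.902 FPKM (-4.35 with the floor). DTL, the receptor of the ligase that degrades CDT1, went from 15.2 to 0.235 FPKM (-3.92 with the floor). SKP2, another CDT1 ligase subunit, was at -1.21. DTL and SKP2 were named after their values were seen. DDB1, the adaptor of the same ligase as DTL, was highest, with 91.3 and 111 FPKM (0.29). Of 17 tested fork enzymes 14 were at least 2-fold lower in RNA at 19 h (7.1% of tested genes), with a median of -2.66. With the floor, their changes ran from FEN1, the flap endonuclease (49.6 to 2.79 FPKM, -4.15), to RFC1, the large clamp loader subunit (19.5 to 10.4, -0.90).

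Mitotic genes, whose products act after replication, had a different time course. At 4 h 0 of 15 tested were at least 2-fold lower in RNA (0.684% of tested genes), with a median of -0.44. For the licensing factors 4 of 10 were, with a median of -0.98. At 6 h all 15 mitotic genes were (5.39% of tested genes), with a median of -2.72 against -3.08. At 19 h the mitotic median was -5.18 against -3.41. With the floor, changes ran from CDC20, the activator of the anaphase-promoting complex (124 to 2.33 FPKM, -5.74), to CCNB2, a mitotic cyclin (57.0 to 3.70, -3.94). In density at 19 h the medians were -4.58 and -3.71. No gene of these lists was at least 2-fold higher in RNA at any time, other than CDKN1A and MDM2, which were listed to check the treatment. These are counts and medians of single libraries, and the difference between the lists was not tested.

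**Figure D4:**
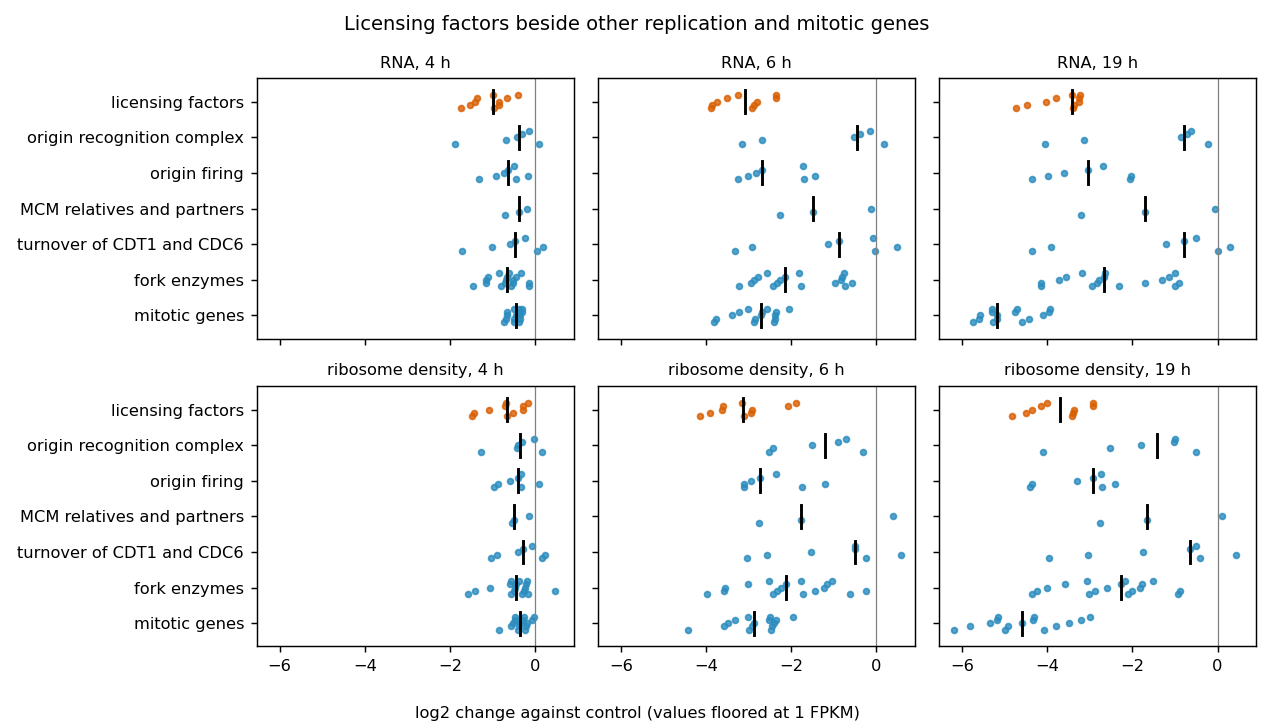
Log2 change against the control (horizontal axis) of each tested gene in the licensing list (orange) and in 6 other lists (blue), for RNA (top) and ribosome density (bottom) at 4, 6 and 19 h, with the median of each list as a black bar. Licensing factors sit lowest by median at 4 h and mitotic genes at 19 h, while 4 of the 6 genes of the origin recognition complex stay within 2-fold of the control in RNA at 19 h.

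The genes most like the MCM ring were sought among tested genes outside these lists, by the root mean square difference from the median profile of MCM2 to MCM7 over the 8 log2 changes of RNA and density. The nearest 5 were EZH2 (0.18), SUV39H1 (0.19), ATAD2 (0.20), HAUS8 (0.23) and CDK2 (0.26). On the same measure MCM4 was at 0.14 and MCM6 at 0.17 from the median, while CDC6, the farthest member, was at 0.86. EZH2, a histone H3 methyltransferase, had 24.4, 23.6, 13.7, 4.22 and 2.60 FPKM of RNA in the control and at 2, 4, 6 and 19 h. CDK2, a kinase of S phase entry, had 39.5, 34.0, 25.1, 7.13 and 4.61. The 8 changes share the control libraries, so the likeness describes these 10 libraries only.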

How the data were processed

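BJ fibroblasts were profiled by RNA-Seq (5 libraries) and Ribo-Seq (5 libraries), grouped by their labels. As the methods describe, the authors used Bowtie to align reads to protein-coding transcripts of Ensembl release 65, with a single isoform per gene and unique hits only (hg19 per the labels). The deposited values are FPKM with 3 decimals, in 2 tables, and 0 per-sample columns were left unused. A table named for Ribo-Seq was read as Ribo-Seq, and the other as RNA-Seq. The methods count coding-sequence reads for Ribo-Seq, but the recovered lengths are those of whole transcripts. Whether reads outside the coding sequence were counted could not be decided. The study reports coding-sequence shares of Ribo-Seq reads that differ between its control, 6 h and 19 h nutlin-3a samples. Their part in density and TE was not tested.

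Values under 1 FPKM were set to 1, and each was divided by the control library's and put on the log2 scale. TE is log2 of Ribo-Seq over RNA-Seq FPKM. The 7015 tested genes reached 5 FPKM in 1 or more RNA-Seq and 1 or more Ribo-Seq libraries, and 2-fold was the threshold. With 1 library per group no test across genes was run. Whole reads, lengths and library totals were worked back from the steps between values (members within 0.06 reads of whole numbers) and gave exact conditional binomial intervals, or for TE exact odds-ratio intervals, at 95%. Named levels, ratios between genes and intervals use values without the floor. Recovery and calls were tested on simulated data. All 10 members are named, and from each other list the genes with the lowest and highest RNA change at 19 h and any 2-fold higher, plus the 5 genes nearest to the MCM2-7 profile. Members, lists and motif words were chosen with earlier results of these data known. Alternatives were no floor, 1 FPKM added, the 2 h library as baseline, median centring, a 1.5-fold threshold, no filter and a mean of at least 20 FPKM. Python 3.11.15, NumPy 2.4.6, pandas 2.3.3, SciPy 1.17.1 and matplotlib 3.10.9 were used. PCR copies could not be told apart, so intervals cover counting error only.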

Additional observations from a re-analysis of the deposited data

Results flagged for a closer look

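Some licensing factors moved in opposite directions at different times, each beyond counting error, in single libraries with no replicate. The log2 change of ribosome density against the control was 0.21 at 2 h and -0.29 at 4 h for MCM2. It was 0.16 and -0.52 for MCM4, 0.14 and -0.28 for MCM5, 0.13 and -0.71 for MCM6, and 0.07 and -0.17 for MCM7. It was 0.26 and -1.44 for CDT1. For MCM3 the log2 change of TE was 0.17 at 2 h and -0.40 at 6 h. For MCM7 it was 0.24 at 4 h and -1.44 at 19 h. For CDC6 it was 0.26 at 4 h and, without the floor and on 11 Ribo-Seq reads, -1.75 at 6 h. Both times of a pair share the control library, and the difference was not tested across replicates.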

How the results depend on the processing

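Of 173 alternative values for 48 results, 153 stayed within the limits set for each and 20 moved. No count or called value changed direction, but the TE median, near 0 at 6 and 19 h, changed sign. At 6 h it was -0.085 with 1 FPKM added and -0.27 against the 2 h library, and at 19 h it was 0.0061 when centred. With a mean of at least 20 FPKM 6 members were left. At 4 h 0 were 2-fold lower in RNA (0.155% of tested genes) and in density (0.0774%). All 6 were in RNA at 6 and 19 h (3.68% and 5.92%) and in density (6.16% and 14.7%). At 1.5-fold, 9 members were lower in RNA (3.58% of tested genes) and 6 in density (3.26%) at 4 h. In TE 2 were higher at 4 h (9.24%) and 1 at 19 h (9.0%). The 1 at 19 h was CDC6, below 1 FPKM in both assays, so its rise came from the floor alone. Without the floor its TE log2 change there was -0.82. Without the floor, 1 member was 2-fold lower in TE at 6 h (CDC6, against 2.67% of tested genes). At 19 h 2 were, MCM7 and MCM10 (4.52%). The 19 h medians without the floor were -3.61 in RNA and -4.19 in density. CDT1 over GMNN in RNA at 19 h was then 0.26, against 0.37 with the floor. Adding 1 FPKM gave an RNA median of -2.79 at 6 h and 2 members 2-fold lower in density at 4 h (0.285% of tested genes). Against the 2 h library the 4 h medians were -0.84 in RNA and 0.15 in TE, and 3 members, without GMNN, were 2-fold lower in RNA (0.969% of tested genes). Centring on the median of tested genes gave -0.77 in density and 0.13 in TE at 4 h. Fewer members follow from the stricter filter itself, and for the other values the cause was not tested. Depth limits Ribo-Seq at 19 h, where MCM10 had 1 read, CDC6 4 and CDT1 14. No paired analysis was possible because every group held 1 library and the labels give no replicate numbers.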
